A study of Mus musculus with 24 samples.

Results

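The genes described here are the retinol dehydrogenase cluster on mouse chromosome 10, which lies near Apof, the gene targeted in the study. They were chosen by name: Rdh1, Rdh7, Rdh9, Rdh16, Rdh16f2, Rdh19, Sdr9c7 and Hsd17b6. All 8 had a row in each of the 4 RNA tables, out of 25239 genes with a row in any of them. They held 26 of 52025 listed N6-methyladenosine (m6A) sites in the 8-week genotype table, 25 of 52315 in the 28-week genotype table and 23 of 51883 in the wild-type age table.

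Livers came from 4 groups of 3 C57BL/6 mice. The knockout (KO) groups, aged 8 weeks and 28 weeks, carried a knockout of the ApoF gene, and the wild-type (WT) groups of the same 2 ages did not. From every animal an input library was sequenced beside a second library, made after immunoprecipitation (IP) for m6A, a methyl mark on messenger RNA. The labels give neither the sex of the animals nor the deleted part of ApoF, and name no Cre line or tissue restriction of the knockout.

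Retinol dehydrogenases oxidise retinol to retinal, the first and usually limiting step on the way from vitamin A to retinoic acid, which then binds nuclear receptors. The genes of this cluster belong to the short-chain dehydrogenases, lie side by side as close relatives and in several cases also oxidise hydroxysteroids such as androgen metabolites. The liver takes up dietary retinoids, keeps them as retinyl esters in stellate cells and expresses many enzymes of the pathway in hepatocytes.

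In the RefSeq annotation of GRCm38.p6, used here for gene order and sequence and not for the coordinates of the study, the order is Rdh1, Rdh9, Rdh16, Rdh19, Rdh16f2, Rdh7, Sdr9c7 and Hsd17b6. Another 7 annotated genes lie among them, and 17 annotated genes separate Hsd17b6 from Apof. The sequences of the 250 bases before the start are shown for the 4 genes that passed the RNA test in some comparison. Rdh16f2 lies on the plus strand (window chr10:127866226-127866475), as do Rdh9 (chr10:127776155-127776404) and Rdh1 (chr10:127759513-127759762), and Hsd17b6 on the minus strand (chr10:128007612-128007861, the first of its 2 annotated starts). Capitals mark matches on either strand to TATAAA (the TATA box), to CCAAT (the CCAAT box), to AGGTCA (a nuclear receptor element) or to TTCNNNGAA (a STAT motif).
Rdh16f2: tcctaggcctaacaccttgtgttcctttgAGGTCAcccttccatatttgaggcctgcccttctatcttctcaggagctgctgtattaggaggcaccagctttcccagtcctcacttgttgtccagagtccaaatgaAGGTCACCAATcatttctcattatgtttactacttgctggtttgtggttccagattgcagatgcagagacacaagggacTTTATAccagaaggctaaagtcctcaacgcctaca
Hsd17b6: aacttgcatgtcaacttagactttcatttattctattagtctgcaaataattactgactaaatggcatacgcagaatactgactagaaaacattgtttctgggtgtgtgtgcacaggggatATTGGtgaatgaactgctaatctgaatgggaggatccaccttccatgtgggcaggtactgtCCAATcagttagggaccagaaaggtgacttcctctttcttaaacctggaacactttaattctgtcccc
Rdh9: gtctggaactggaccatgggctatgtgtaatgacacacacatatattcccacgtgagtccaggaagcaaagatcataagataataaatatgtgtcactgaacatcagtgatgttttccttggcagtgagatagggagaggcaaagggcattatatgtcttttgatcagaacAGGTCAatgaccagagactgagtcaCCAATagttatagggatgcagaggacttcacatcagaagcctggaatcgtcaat
Rdh1: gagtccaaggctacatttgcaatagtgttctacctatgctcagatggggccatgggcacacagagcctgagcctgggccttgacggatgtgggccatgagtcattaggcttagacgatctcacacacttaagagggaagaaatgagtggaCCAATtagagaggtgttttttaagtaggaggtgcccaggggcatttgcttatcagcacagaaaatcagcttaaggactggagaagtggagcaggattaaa
CCAAT was present in all 4 windows, on both strands in Hsd17b6, and in Rdh16f2 it followed the second AGGTCA match directly, with no base between them or shared. Over the 9 starts annotated for 7 of the genes (Rdh7 and Hsd17b6 have 2 each), CCAAT was found in 6 windows, AGGTCA in 4, TATAAA in 3 and TTCNNNGAA in 2. The 2 windows of Hsd17b6 overlap and share CCAAT matches, so these windows are not independent. Among all 32851 RefSeq windows of this length the shares were 33.8% for CCAAT, 14.0% for AGGTCA, 12.4% for TATAAA and 7.02% for TTCNNNGAA. These matches are letters in a window, and no binding was measured. The windows of 300 bases, with 50 bases after the start, also show how alike some of the genes are. The longest stretch found unbroken in the windows of both Rdh9 and Rdh16 was 43 bases, against 17 bases or fewer for every other pair. Reads of related genes can be split between them in counting. How alike the transcripts are was not measured here, and whether the values of these genes are touched by it was not tested.

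The liver label was checked with 13 hepatocyte markers, of which 12 were in the tables, all at levels that allowed a test. Albumin (Alb) alone had between 2857110 and 4707570 normalized counts per group. Levels are group means in normalized counts implied by a table's mean and log2 ratio. No values per animal are in the tables used, and groups were scaled within each table, so a level differs slightly between the 2 tables that hold its group. Levels are not compared between genes, since no transcript length was used. Apof itself had 14414 normalized counts in KO and 23454 in WT livers at 8 weeks (log2 ratio -0.70 ± 0.11 SE, adjusted p = 2.31e-08 in the authors' deposited table). At 28 weeks it had 11839 in KO and 23860 in WT livers (-1.01 ± 0.16, adjusted p = 2.53e-06 in the authors' deposited table).

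Sex-linked RNA set the WT group of 8 weeks apart. The 4 Y-linked genes Ddx3y, Kdm5d, Eif2s3y and Uty summed to 4965 normalized counts in KO and 3.49 in WT livers at 8 weeks, and 3 of the 4 passed the test. At 28 weeks the sums were 4680 in KO and 4506 in WT livers, and within WT they were 4722 at 28 weeks and 3.29 at 8 weeks. Xist, the X-inactivation RNA, had 10192 normalized counts in KO and 21017 in WT livers at 8 weeks, and 8903 in KO and 8747 in WT livers at 28 weeks. Its log2 SEs were 2.15 and 2.57 at these ages, and it had no adjusted p. The 3 groups other than young WT livers thus held both Xist and Y-linked RNA. Of the male-biased liver genes listed, 9 of 17 tested were higher and none lower in KO livers at 8 weeks, and of the female-biased ones 8 of 22 were lower and none higher. In WT livers 14 of 18 male-biased genes were higher at 28 than at 8 weeks, and 1 of 18 female-biased genes was lower. Both comparisons that use the WT group of 8 weeks are therefore also comparisons of groups with different sex-linked RNA. Genotype and age cannot be told apart from that difference. The test of the genotype ratio between ages and the pattern likeness, both given below, also hold this WT group.

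**Figure D1:**
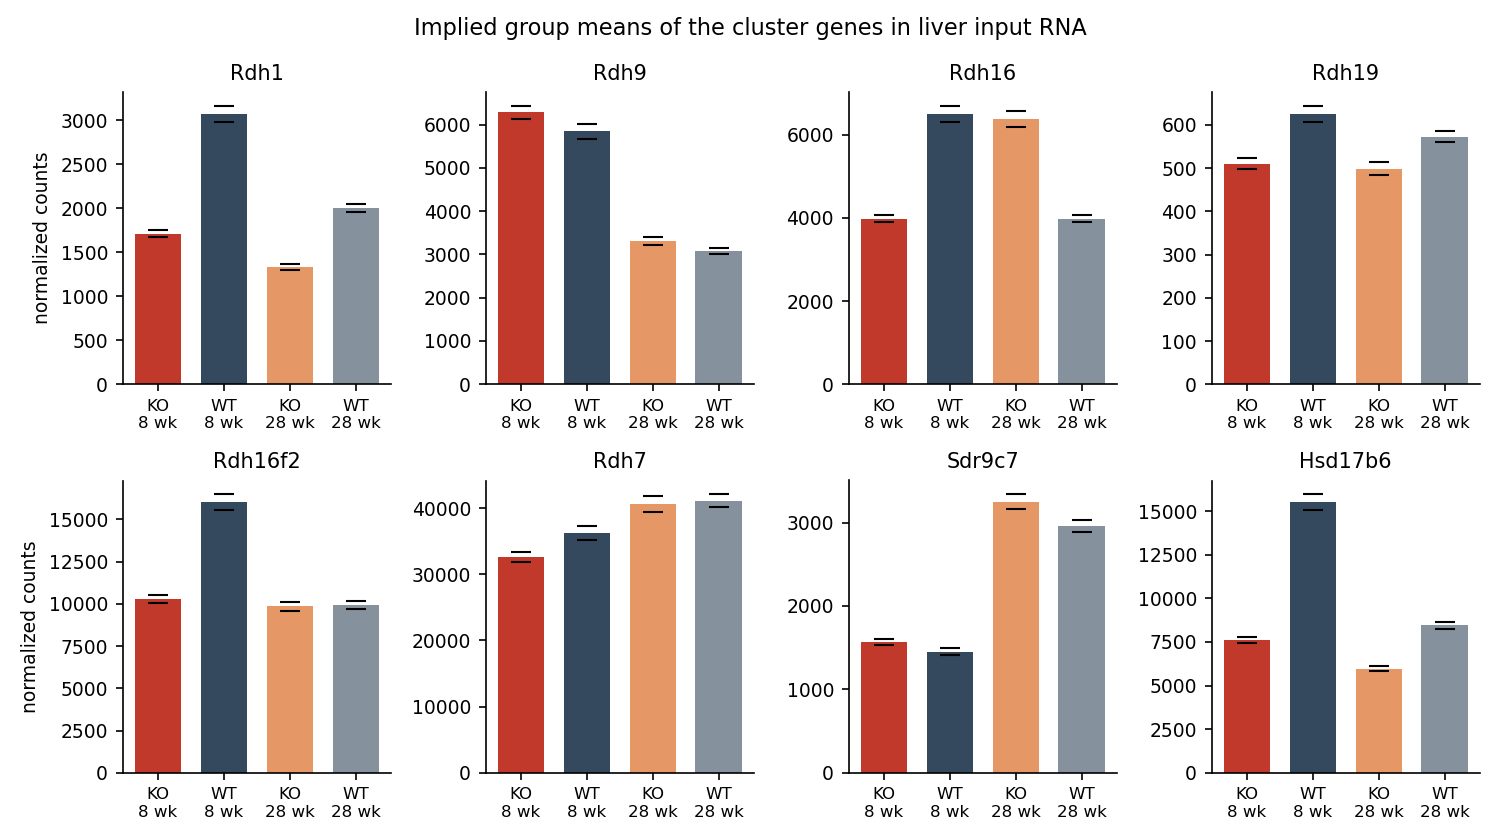
Implied mean level of each cluster gene (normalized counts, axis from 0) in KO and WT livers at 8 and 28 weeks, 3 animals per group. Bars are the mean of the 2 tables that hold a group and short lines the value in each table; they are not errors. Rdh1, Rdh16f2 and Hsd17b6 were highest in WT livers of 8 weeks, and Rdh9 was higher at 8 weeks than at 28 weeks in both genotypes.

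Between genotypes at 8 weeks, 1 of the 8 genes passed the test. Rdh16f2 (also CRAD-L), a relative of the cis-retinol and androgen dehydrogenases, fell to 10520 normalized counts in KO livers, against 16472 in WT livers. That is 63.9% of the WT level (log2 ratio -0.65 ± 0.15, adjusted p = 0.00121 in the authors' deposited table, DESeq2). Over all 15214 genes tested at this age 4.98% passed, 2.48% as higher and 2.50% as lower. In bulk liver, fewer cells of a type and less RNA per cell cannot be told apart.

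Hsd17b6, a hydroxysteroid dehydrogenase that oxidises androstanediol, had the lowest ratio of the cluster but did not pass. Its level was 7789 normalized counts in KO and 15964 in WT livers at 8 weeks (-1.04 ± 0.40, adjusted p = 0.113 in the authors' deposited table). Rdh1, an all-trans-retinol dehydrogenase, had 1752 in KO and 3166 in WT livers (-0.85 ± 0.36, adjusted p = 0.172 in the authors' deposited table). Rdh16 (CRAD1), a cis-retinol and androgen dehydrogenase, had 4073 in KO and 6689 in WT livers (-0.72 ± 0.35, adjusted p = 0.269 in the authors' deposited table). Each of these 3 genes had a lower ratio and a larger error than Rdh16f2.

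Ratios of the other 4 genes at 8 weeks were smaller in size. Rdh19 (RDH-S), a short-chain dehydrogenase of the family, had 523 normalized counts in KO and 644 in WT livers (-0.30 ± 0.19 in the authors' deposited table). Rdh7 (CRAD2), a cis-retinol and hydroxysteroid dehydrogenase, had 33434 in KO and 37303 in WT livers (-0.16 ± 0.22 in the authors' deposited table). Rdh9 (CRAD3), of the same enzyme group, had 6430 in KO and 6019 in WT livers (0.10 ± 0.33 in the authors' deposited table). Sdr9c7, known from human skin as an enzyme of the epidermal barrier, had 1609 in KO and 1493 in WT livers (0.11 ± 0.44 in the authors' deposited table). In all, 6 of the 8 ratios were below 0 and 4 had an unadjusted p under 0.05. The median was -0.47, against 0.01 over all genes tested.

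At 28 weeks none of the 8 genes passed the authors' DESeq2 test, against 0.257% of 14391 genes, and 1 had an unadjusted p under 0.05. That gene was Rdh1, with 1294 normalized counts in KO and 1957 in WT livers (-0.60 ± 0.20, adjusted p = 0.314 in the authors' deposited table). Hsd17b6 had 5809 in KO and 8256 in WT livers (-0.51 ± 0.28, adjusted p = 0.954 in the authors' deposited table). Both genes had ratios below 0 at both ages, without passing at either.

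Rdh16f2, which passed at 8 weeks, had nearly equal levels of 9556 normalized counts in KO and 9701 in WT livers at 28 weeks. Its error was large, however, at -0.02 ± 0.76 in the authors' deposited table. Rdh16 had 6185 in KO and 3891 in WT livers (0.67 ± 0.45 in the authors' deposited table), the reverse of its order at 8 weeks. Rdh19 stood at 485 in KO and 560 in WT livers, Rdh9 at 3219 in KO and 2998 in WT livers, and Rdh7 at 39470 in KO and 40181 in WT livers. Sdr9c7 had 3158 in KO and 2890 in WT livers with the largest error of the cluster (0.13 ± 0.82 in the authors' deposited table). The median ratio was -0.02, against 0.01 over all genes tested. A p that misses the threshold does not show that levels were alike.

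**Figure D2:**
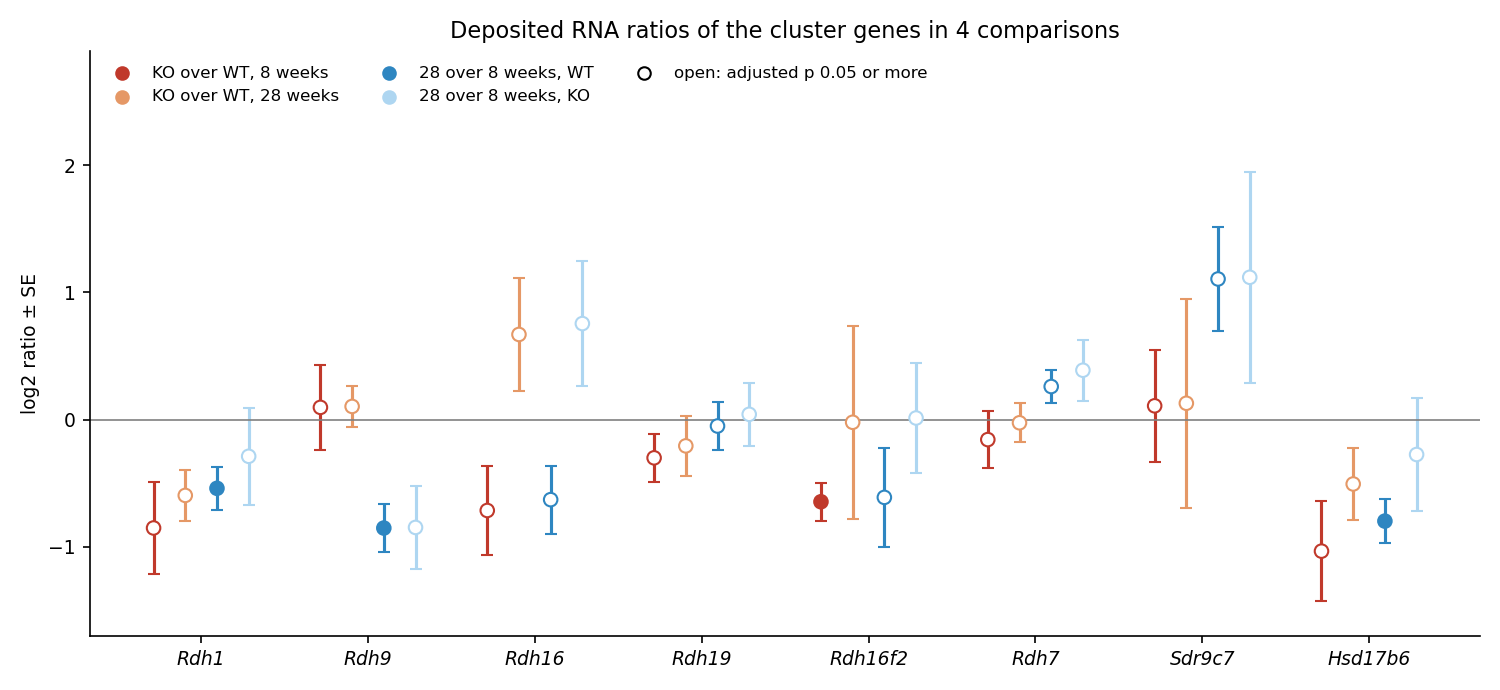
Log2 ratio ± SE of each cluster gene in the 4 RNA comparisons, from the authors' deposited tables (3 animals per group). Filled points have an adjusted p under 0.05: Rdh16f2 between genotypes at 8 weeks, and Rdh1, Rdh9 and Hsd17b6 between ages in WT livers, all below 0.

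Whether the genotype ratio differed between ages was tested as the 28-week minus the 8-week log2 ratio, which share no library. The 8-week ratio holds the WT group with different sex-linked RNA, and its part in these differences cannot be told apart. None of the 8 differences passed a Wald test with Benjamini-Hochberg adjustment on the DESeq2 ratios, against 1.58% of 14278 genes, and 1 had an unadjusted p under 0.05. For Rdh16 the difference was 1.38 ± 0.57 (95% interval 0.27 to 2.50, adjusted p = 0.245). For Rdh16f2 it was 0.63 ± 0.77 (95% interval -0.89 to 2.14, adjusted p = 0.859), so its pass at 8 weeks and not at 28 weeks is not shown to be a difference between ages. For Hsd17b6 it was 0.53 ± 0.49 and for Rdh1 0.26 ± 0.41. Rdh9, Sdr9c7, Rdh19 and Rdh7 had differences of 0.01 ± 0.37, 0.02 ± 0.93, 0.09 ± 0.30 and 0.13 ± 0.27 in that order.

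With age in WT livers, 3 of the 8 genes fell and none rose, where 4.24% of 13474 genes passed, 2.37% as higher and 1.86% as lower. Rdh9 fell to 3140 normalized counts at 28 weeks, against 5674 at 8 weeks, which is 55.3% of the younger level (-0.85 ± 0.19, adjusted p = 5.1e-04 in the authors' deposited table). Hsd17b6 fell to 8649 at 28 weeks, against 15049 at 8 weeks, or 57.5% (-0.80 ± 0.17, adjusted p = 3.54e-04 in the authors' deposited table). Rdh1 fell to 2051 at 28 weeks, against 2984 at 8 weeks, or 68.7% (-0.54 ± 0.17, adjusted p = 0.0363 in the authors' deposited table).

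Between ages in WT livers the remaining 5 genes did not pass. Sdr9c7 had 3029 normalized counts at 28 weeks and 1408 at 8 weeks (1.11 ± 0.41, adjusted p = 0.105 in the authors' deposited table) and the highest ratio of the cluster. Rdh16 had 4074 at 28 weeks and 6306 at 8 weeks (-0.63 ± 0.27, adjusted p = 0.198 in the authors' deposited table). Rdh16f2 had 10156 at 28 weeks and 15527 at 8 weeks (-0.61 ± 0.39, adjusted p = 0.510 in the authors' deposited table). Rdh7 had 42088 at 28 weeks and 35164 at 8 weeks, and Rdh19 had 586 at 28 weeks and 607 at 8 weeks. Of the 8 genes 6 had an unadjusted p under 0.05, and the median ratio was -0.58, against -0.01 over all genes tested.

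With age in KO livers none of the 8 genes passed the authors' DESeq2 test, against 4.49% of 14798 genes, and 1 had an unadjusted p under 0.05. Rdh9 had 3408 normalized counts at 28 weeks and 6138 at 8 weeks (-0.85 ± 0.33, adjusted p = 0.127 in the authors' deposited table), a ratio equal to that in WT livers with a larger error. Sdr9c7 had 3338 at 28 weeks and 1537 at 8 weeks (1.12 ± 0.83 in the authors' deposited table). Its ratio also matched that in WT livers, and it too did not pass.

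Rdh16 had 6559 normalized counts at 28 weeks and 3888 at 8 weeks in KO livers (0.75 ± 0.49 in the authors' deposited table), a ratio of the opposite sign from WT livers. Hsd17b6 had 6150 at 28 weeks and 7443 at 8 weeks (-0.28 ± 0.45 in the authors' deposited table). Rdh1 had 1370 at 28 weeks and 1674 at 8 weeks (-0.29 ± 0.38 in the authors' deposited table). Rdh7, Rdh16f2 and Rdh19 had ratios of 0.39 ± 0.24, 0.01 ± 0.43 and 0.04 ± 0.25 in that order in the authors' deposited table. The median over the 8 genes was 0.03, against -0.0042 over all genes tested.

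Set side by side, the levels of Hsd17b6 were 7443 to 7789 normalized counts in KO and 15049 to 15964 in WT livers at 8 weeks, and 5809 to 6150 in KO and 8256 to 8649 in WT livers at 28 weeks, over tables scaled separately. The young WT livers were highest, and of the 4 pairs of groups compared only that of the WT ages passed. Rdh1 had the same order of groups, with 1674 to 1752 in KO and 2984 to 3166 in WT livers at 8 weeks, and 1294 to 1370 in KO and 1957 to 2051 in WT livers at 28 weeks. Rdh9 instead followed age, with 6138 to 6430 in KO and 5674 to 6019 in WT livers at 8 weeks, and 3219 to 3408 in KO and 2998 to 3140 in WT livers at 28 weeks. In both genotypes its older level was the lower one, and that fall passed in WT livers. Rdh16f2 had 10047 to 10520 in KO and 15527 to 16472 in WT livers at 8 weeks, and 9556 to 10129 in KO and 9701 to 10156 in WT livers at 28 weeks. There the young WT group was the highest, and the ranges of the other 3 groups overlapped.

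The errors of the cluster were wide for its abundance. Of the 32 ratios (8 genes in 4 tables), 17 had a larger SE than 90% of the tested genes whose mean level was between 0.5 and 2 times their own, and these came from 6 of the 8 genes. For Sdr9c7 this held in all 4 tables, with SEs from 0.41 to 0.83, and for Rdh16 likewise, with SEs from 0.27 to 0.49. Rdh16f2 had an SE of 0.15 between genotypes at 8 weeks, below the median of 0.18 for genes of like level, and an SE of 0.76 at 28 weeks, against 0.16. Rdh7 and Rdh19 had no such wide error in any table. The DESeq2 p-values set each ratio against its SE, which was estimated with 3 animals per group.

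Pattern likeness was measured as the Euclidean distance over the 4 deposited log2 ratios, among 11564 genes with an adjusted p in all 4 tables and a mean of at least 50 normalized counts. The 4 ratios come from 4 groups and share them, so the distance describes 3 independent contrasts of 12 animals. Of all these genes, Rdh1 was the nearest to Hsd17b6, at a distance of 0.328, against a median of 1.52. The next were Ier2 at 0.363 and Evc2 at 0.366. From the side of Rdh1, Smad9 (0.156) and Ssh2 (0.168) were among the 3 nearest, and Hsd17b6 ranked 6. For Rdh16f2 the nearest were Notum (0.0782), Stk35 (0.0832) and Zfp385b (0.0885), and for Rdh9 they were Tcf7 (0.0920), Kazn (0.125) and Peg3 (0.134). No cluster gene was among the 3 nearest to Rdh1, Rdh16f2 or Rdh9.

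Genes around the cluster were taken from 10 annotated genes before Rdh1 to Apof, leaving out the cluster and Apof. At 8 weeks 1 of 19 tested neighbours passed between genotypes, and at 28 weeks 1 of 18, in both cases Apon, the gene next to Apof. Apon encodes a liver apolipoprotein. It had ratios of -0.92 ± 0.25 at 8 weeks (adjusted p = 0.00939) and -0.78 ± 0.10 at 28 weeks (adjusted p = 9.28e-11) in the authors' deposited tables. Between ages it rose in WT livers (0.57 ± 0.11, adjusted p = 5.76e-05 in the authors' deposited table), alone among 17 tested neighbours in passing. In KO livers none of 18 passed the DESeq2 test between ages, and 4 had an unadjusted p under 0.05. Of the neighbours that lie between Hsd17b6 and Apon, none passed in either genotype comparison.

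**Figure D3:**
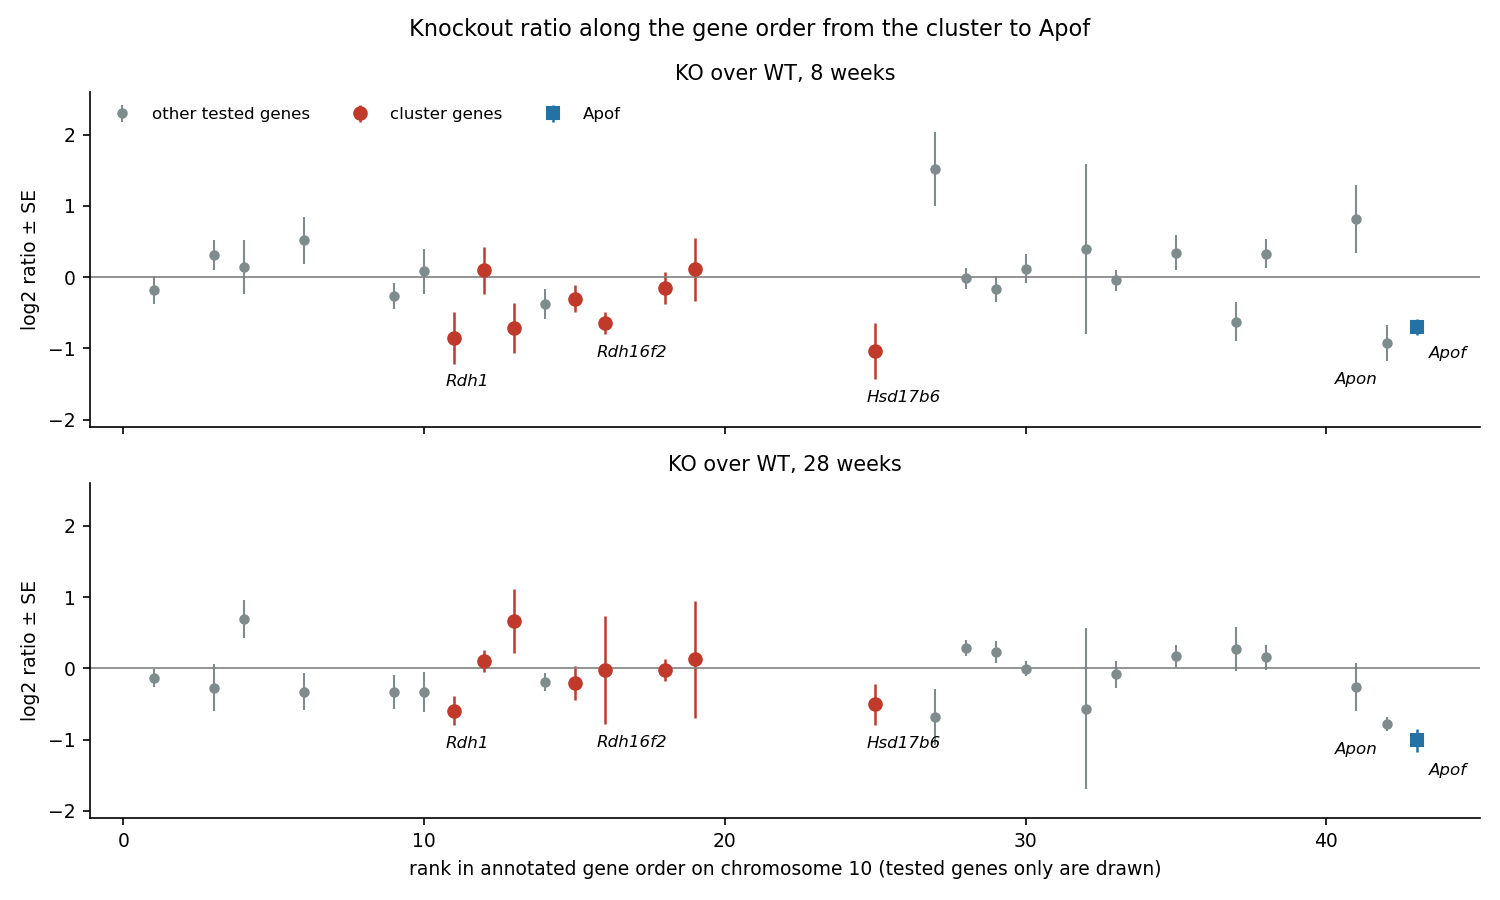
Log2 ratio ± SE of KO over WT livers (3 animals per group, the authors' deposited tables) for the tested genes from 10 genes before Rdh1 to Apof, by rank in the annotated order. Rdh16f2, Apon and Apof were below 0 and passed the test at 8 weeks, and only Apon and Apof did at 28 weeks.

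Other genes that handle retinol and retinal were compared as a list of 16, of which 14 were tested. At 8 weeks 2 of the 14 were lower and none higher in KO livers, with a median ratio of -0.10. Retsat, which saturates a double bond of retinol, fell to 7316 normalized counts in KO livers, against 16300 in WT livers (-1.16 ± 0.22, adjusted p = 1.28e-05 in the authors' deposited table). Rdh10, a retinol dehydrogenase needed in the mouse embryo, fell to 567 in KO livers, against 890 in WT livers (-0.65 ± 0.17, adjusted p = 0.00436 in the authors' deposited table). At 28 weeks none of 14 passed the DESeq2 test between genotypes, and none had an unadjusted p under 0.05. With age Rdh13 fell in WT livers, with 278 at 28 weeks and 418 at 8 weeks (-0.59 ± 0.17, adjusted p = 0.0228 in the authors' deposited table). In KO livers none of 14 passed the DESeq2 test between ages, with 4 at an unadjusted p under 0.05.

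Among 12 genes of retinoic acid synthesis and clearance, 2 of 12 tested were lower and none higher in KO livers at 8 weeks. Cyp26a1, the hydroxylase that clears retinoic acid and is itself induced by it, fell to 261 normalized counts in KO livers, against 1346 in WT livers (-2.37 ± 0.56, adjusted p = 0.00146 in the authors' deposited table). Cyp2c39, a mouse retinoic acid hydroxylase, fell to 175 in KO livers, against 442 in WT livers (-1.34 ± 0.32, adjusted p = 0.00191 in the authors' deposited table). At 28 weeks none of 11 passed the DESeq2 test between genotypes, with 2 at an unadjusted p under 0.05.

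Between ages in WT livers 3 of 11 genes of that list rose and none fell. Cyp26b1, a second retinoic acid hydroxylase, had 660 normalized counts at 28 weeks and 145 at 8 weeks (2.19 ± 0.46, adjusted p = 2.17e-04 in the authors' deposited table). Ugt2b1, a glucuronosyltransferase that also stands in the list of male-biased liver genes, had 8813 at 28 weeks and 3455 at 8 weeks, and Aldh1a7, of the retinal dehydrogenase family, had 8871 at 28 weeks and 6350 at 8 weeks. In KO livers Cyp26a1 rose to 1433 at 28 weeks, against 249 at 8 weeks (2.52 ± 0.58, adjusted p = 0.00104 in the authors' deposited table), and Aldh1a2 fell to 0.185, against 25.2 at 8 weeks, of 12 tested.

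Of 20 genes of retinoid storage, binding and transport, 14 were tested at 8 weeks, where 2 were higher and 1 lower in KO livers. Lpl, the lipoprotein lipase, had 4672 normalized counts in KO and 636 in WT livers (2.88 ± 0.30, adjusted p = 6.09e-19 in the authors' deposited table). Ces1d, a carboxylesterase that hydrolyses retinyl esters, had 15323 in KO and 33039 in WT livers (-1.11 ± 0.36, adjusted p = 0.0442 in the authors' deposited table).

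Some markers of other cells also stood higher in young KO livers, in part without a test. Of 11 stellate cell markers, 10 were tested and 2 were higher in KO livers at 8 weeks, Col1a1 and Col3a1. The list summed to 24733 normalized counts in KO and 14521 in WT livers, and Col3a1 alone had 10687 in KO and 2307 in WT livers. Lrat, on the same list, had 1258 in KO and 1331 in WT livers (-0.08 ± 0.22 in the authors' deposited table). Sums in KO and WT livers, in that order, were 23519 and 24701 for Kupffer cell markers and 13933 and 14641 for sinusoidal endothelial markers. For cholangiocyte markers they were 2285 and 1797. No gene of the Kupffer, endothelial and cholangiocyte lists passed the DESeq2 test, with 1 of each list at an unadjusted p under 0.05. The list of 11 keratinocyte, adipose, muscle and pancreas markers summed to 13086 in KO and 170 in WT livers at 8 weeks, and to 463 in KO and 406 in WT livers at 28 weeks. Of that list 3 genes were tested at 8 weeks and none passed the DESeq2 test, with 1 at an unadjusted p under 0.05. In young KO livers nearly all of the sum was the muscle genes Myh4 (7080) and Acta1 (5657), which had no adjusted p and SEs of 3.76 and 3.91, while Krt5, Prss1 and Cpa1 were listed at 0. Their part in the differences of young KO livers was not tested.

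At 28 weeks none of 13 tested genes of the storage list passed the DESeq2 test between genotypes, with 1 at an unadjusted p under 0.05. With age, Stra6l, a retinol transport receptor, rose in WT livers and Ces1d fell, of 13 tested. In KO livers 3 of 14 tested were lower at 28 weeks, among them Lpl and Bco1, which cleaves beta-carotene, and 1 was higher, Bco2. Lpl there had 636 normalized counts at 28 weeks and 4462 at 8 weeks (-2.81 ± 0.22, adjusted p = 2.97e-32 in the authors' deposited table). In the same comparison 5 of 10 tested stellate markers fell and none rose, Col1a1 and Col3a1 among them, with list sums of 9936 at 28 weeks and 23622 at 8 weeks. The keratinocyte, adipose, muscle and pancreas list summed to 489 at 28 weeks and 12476 at 8 weeks, with none of 3 tested genes past the DESeq2 test or at an unadjusted p under 0.05. Their part in these changes was not tested. None of the 6 retinoic acid and retinoid X receptor genes passed the DESeq2 test in any of the 4 comparisons, with 0 or 1 of them at an unadjusted p under 0.05.

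Since Hsd17b6 and several Rdh genes act on hydroxysteroids, 28 other hydroxysteroid and androgen enzymes were listed. At 8 weeks 3 of 26 tested were higher and none lower in KO livers: Akr1c18, Hsd3b5 and Hsd17b12. Hsd3b5, a male-biased ketosteroid reductase of mouse liver, had 8039 normalized counts in KO and 116 in WT livers, and Hsd17b12 had 6908 in KO and 4899 in WT livers. With age in WT livers 4 of 24 rose (Srd5a1, Hsd3b5, Cyp7b1 and Hsd17b12) and Akr1c20 fell. In KO livers Cyp7b1 and Srd5a1 rose and Akr1c18 fell, of 25 tested. At 28 weeks none of 24 passed the DESeq2 test between genotypes, with 1 at an unadjusted p under 0.05. Hsd3b5 and Cyp7b1 also stand in the list of male-biased genes.

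The m6A sites of the cluster had more input reads in WT livers at the median than all listed sites, although a few were thinly read. A site here is a row with IP and input reads that the authors summed over the 3 animals of a group, so its p holds no spread between animals. In WT livers the median site of the cluster had 2130 input reads in the 8-week table, against 163 over all sites. In the 28-week table it had 1331 there, against 151. Of the 26 sites at 8 weeks 24 had an adjusted p and 5 passed, 3 higher and 2 lower, against 10.9% of 25727 sites, 5.52% as higher and 5.43% as lower. All changes that passed were small, at most 0.22 on the log2 scale in size.

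The largest at 8 weeks was a site of Rdh9, with 7455 IP and 7838 input reads in KO and 6644 IP and 9001 input reads in WT livers (log2 change 0.22, adjusted p = 2.24e-09 in the authors' deposited table). Hsd17b6 had a site with 22023 IP and 21415 input reads in KO and 34123 IP and 39321 input reads in WT livers (0.08, adjusted p = 1.65e-04 in the authors' deposited table). Rdh7 had one with 40088 IP and 41569 input reads in KO and 38451 IP and 47831 input reads in WT livers (0.05, adjusted p = 0.00290 in the authors' deposited table). These 3 sites were higher in KO livers relative to input.

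Lower in KO livers were the single sites of Rdh16f2 and Rdh1. The Rdh16f2 site had 34591 IP and 27563 input reads in KO and 51966 IP and 44827 input reads in WT livers (-0.08, adjusted p = 6.50e-07 in the authors' deposited table). That of Rdh1 had 10555 IP and 11861 input reads in KO and 15996 IP and 19383 input reads in WT livers (-0.10, adjusted p = 0.00130 in the authors' deposited table). As a bare ratio, IP to input reads in Rdh16f2 stood at 1.25 in KO and 1.16 in WT livers. Scaled to the totals of all listed sites, the log2 values were 0.21 in KO and 0.24 in WT livers, the opposite order. For the Rdh1 site the bare ratios were 0.890 in KO and 0.825 in WT livers. Its scaled log2 values were -0.28 in KO and -0.25 in WT livers, again the opposite order.

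At 28 weeks 23 of 25 sites had an adjusted p and 5 passed, 3 higher and 2 lower, against 9.18% of 18751 sites, 2.57% as higher and 6.62% as lower. The Rdh16f2 site was again lower, with 33621 IP and 26524 input reads in KO and 40386 IP and 26421 input reads in WT livers (-0.21, adjusted p = 2.67e-36 in the authors' deposited table). Between genotypes the input reads were nearly equal there, and IP reads were fewer in KO livers. A site of Hsd17b6 had 1427 IP and 1580 input reads in KO and 4650 IP and 3901 input reads in WT livers (-0.34, adjusted p = 1.64e-06 in the authors' deposited table). This was the largest change of the cluster that passed.

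The 3 sites that were higher in KO livers at 28 weeks belonged to Rdh9, Rdh19 and Sdr9c7. The Rdh9 site had 4448 IP and 4711 input reads in KO and 4564 IP and 5218 input reads in WT livers (0.17, adjusted p = 0.00107 in the authors' deposited table). For Rdh19 the reads were 6356 IP and 7279 input in KO and 6549 IP and 8008 input in WT livers (0.12, adjusted p = 0.00689 in the authors' deposited table). For Sdr9c7 they were 1984 IP and 1218 input in KO and 1679 IP and 1148 input in WT livers (0.22, adjusted p = 0.0485 in the authors' deposited table). That Sdr9c7 site no longer passed once p was adjusted again over only the sites of at least 50 input reads in each group, at an adjusted p of 0.0908.

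Between ages in WT livers all 23 sites had an adjusted p and 7 passed, 6 of them higher at 28 weeks, against 11.3% of 20628 sites, 9.06% as higher and 2.20% as lower. Rdh16, Hsd17b6 and Rdh7 had a pair of them each. In Rdh16 the changes were 0.19 (adjusted p = 1.20e-09) and 0.22 (adjusted p = 0.0283), and in Hsd17b6 0.16 (adjusted p = 0.00921) and 0.07 (adjusted p = 6.59e-04), in the authors' deposited table. Rdh7 had one higher site (0.07, adjusted p = 2.97e-06) and one lower site (-0.14, adjusted p = 6.82e-06) in the authors' deposited table. In Rdh16f2 the site was higher at 28 weeks, with 40386 IP and 26421 input reads at 28 weeks and 51966 IP and 44827 input reads at 8 weeks (0.12, adjusted p = 2.38e-14 in the authors' deposited table).

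**Figure D4:**
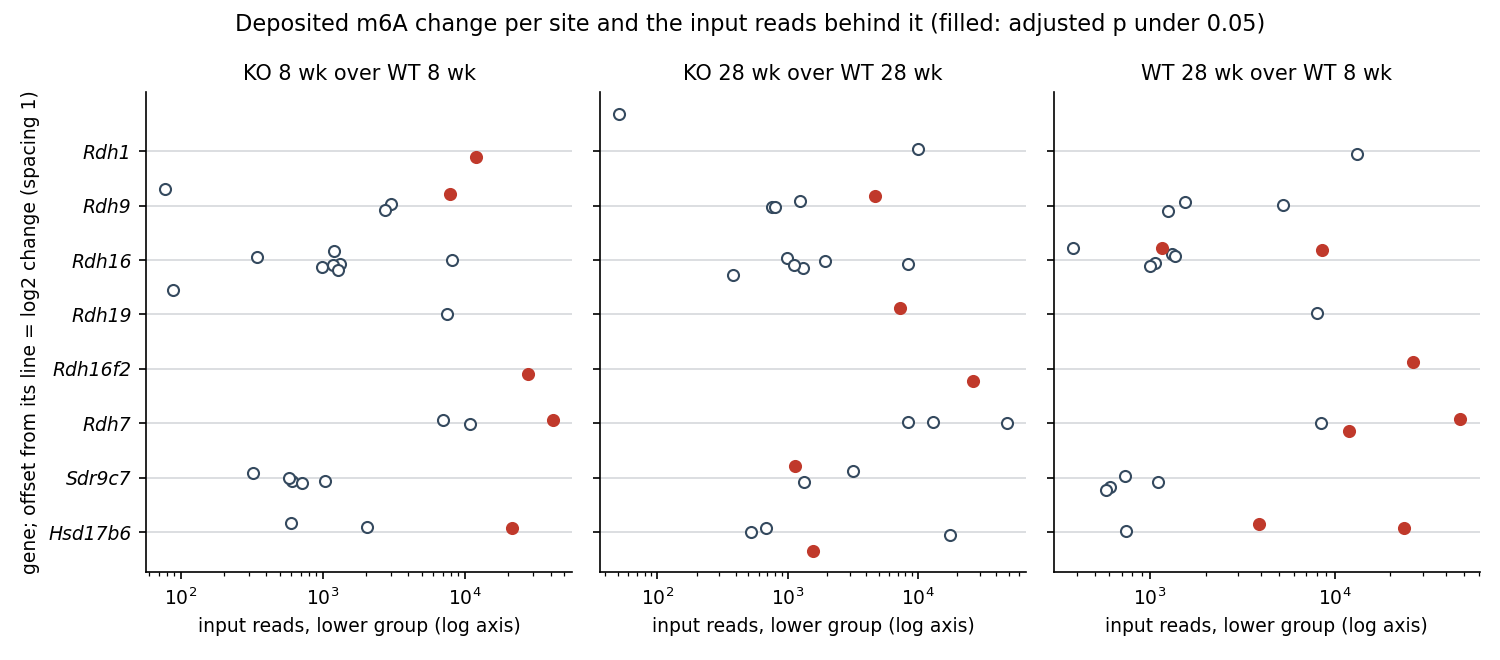
Log2 change of each cluster site in the authors' deposited tables, drawn as the offset from its gene's line (spacing 1), against the input reads of the group with fewer (log axis, reads summed over 3 animals). Filled sites have an adjusted p under 0.05 and sit mostly at the right, at high read numbers; 1 site of Rdh19 at 28 weeks with a change of 14.25 is not drawn.

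By equal WT sums, 8 sites of 6 genes could be followed through all 3 tables, and 1 of them, that of Rdh16f2, passed at both ages. Its bare IP to input read ratio was 1.25 in KO and 1.16 in WT livers at 8 weeks, and 1.27 in KO and 1.53 in WT livers at 28 weeks. Scaled to the totals of all listed sites, the log2 values were 0.21 in KO and 0.24 in WT livers at 8 weeks. At 28 weeks they were 0.18 in KO and 0.39 in WT livers. The older WT livers thus had the highest value by either measure, while the order of KO and WT livers at 8 weeks depended on the scaling. The Hsd17b6 site that passed at 28 weeks had bare ratios of 1.08 in KO and 0.899 in WT livers at 8 weeks, and 0.903 in KO and 1.19 in WT livers at 28 weeks. Its scaled log2 values were -0.0041 in KO and -0.13 in WT livers at 8 weeks, and -0.31 in KO and 0.03 in WT livers at 28 weeks. Bare ratios of different groups are not on one scale. The deposited genotype change had opposite signs at the 2 ages in 3 of the 8 sites, and whether they differ between ages was not tested.

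IP over input, scaled to the totals of all listed sites, was low at most sites of the cluster, but not in all of its genes. At 8 weeks the median log2 value over its 26 sites was -0.21 in KO and -0.25 in WT livers, against 0.03 in KO and -0.03 in WT livers over the 38809 sites with at least 50 input reads in each group. Only 6 of the 26 sites in KO and 4 in WT livers lay above the median of all sites. In WT livers these 4 were the single Rdh16f2 site and sites of Sdr9c7. The Rdh16f2 site had 0.21 in KO and 0.24 in WT livers, and the highest Sdr9c7 site had 0.59 in both. Cluster sites and all sites were not matched for read number. At 28 weeks the cluster's medians were -0.23 in KO and -0.27 in WT livers over 24 sites. Among sites with at least 50 input reads in each group, no cluster site exceeded 1 in any group of the 3 tables, where 0.854% to 2.11% of all such sites did. The highest value among these was 0.61, for a site of Sdr9c7 in young WT livers, and the lowest was -0.97, for a site of Rdh7 in the same livers. Sites of 1 gene share their transcripts and are not independent.

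**Figure D5:**
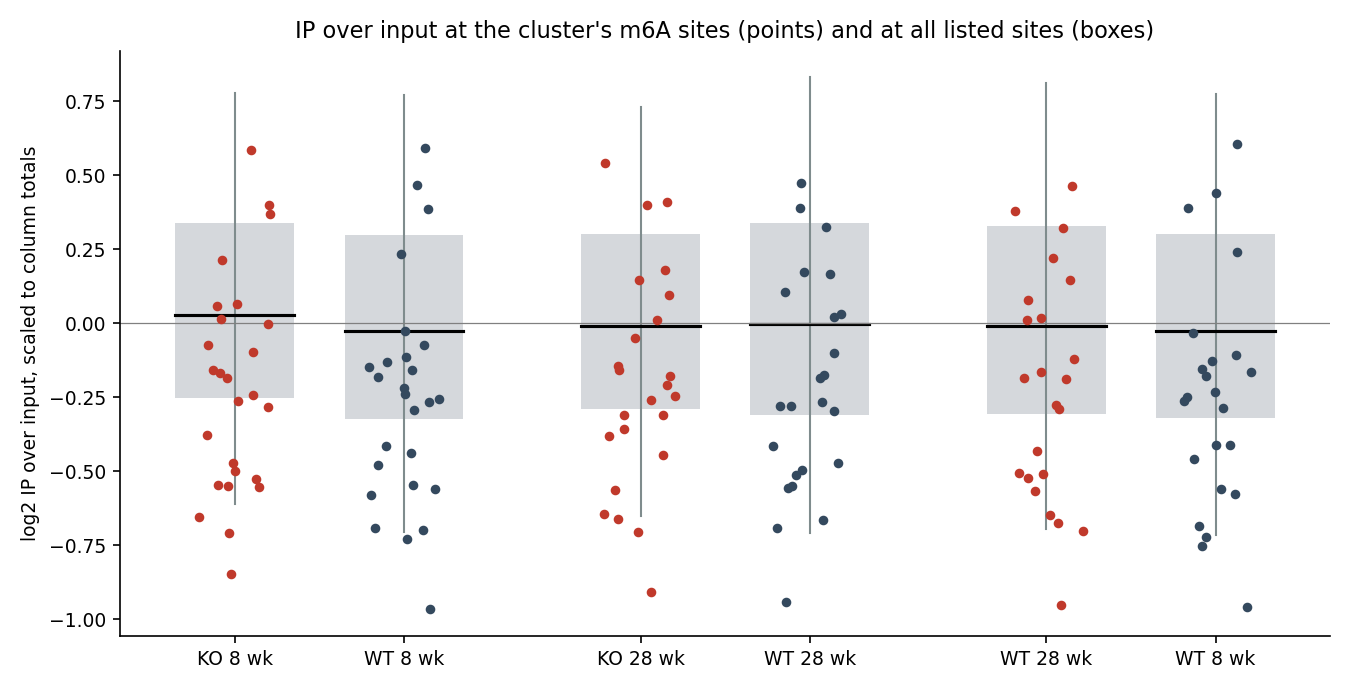
Log2 IP over input, scaled to column totals, at the cluster's sites with at least 50 input reads in each group (points) and at all such sites (box: middle 50%, black line: median, thin line: 5th to 95th percentile), for each pair of groups compared. Points lie mostly below the median of all sites in every group.

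Reads at the sites also give the RNA difference in raw form, from the same input libraries. For Hsd17b6 they summed to 24038 input reads in KO and 44842 in WT livers at 8 weeks, a log2 ratio of -0.97 after scaling, beside the RNA ratio of -1.04 in the authors' deposited table. For Rdh16 the sums were 14471 in KO and 22548 in WT livers at 8 weeks, and 21078 in KO and 14199 in WT livers at 28 weeks. The change of order between ages that its levels showed is thus also in the reads, without passing the test of the difference.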

How the data were processed

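Liver input RNA and m6A IP RNA of 12 mice were sequenced in 24 libraries that carried strand information and unique molecular identifiers, per the labels' protocols. HISAT2, StringTie and DESeq are named without versions in the submitters' processing notes; for genome build and site caller the sources used here give no name. In the 4 RNA tables the signal column is the authors' mean of counts over size factors, and the log2 column is the deposited DESeq2 ratio with its SE. Each table also holds the authors' p-value and its Benjamini-Hochberg adjusted p. Each site count is a read number summed by the authors over the 3 animals of a group, per the file headers; summed IP reads ran to between 72868528 and 90420947 per column and summed input reads to between 74003375 and 80819641.

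The numerator is not stated. RNA signs were turned so that positive means higher in KO or at 28 weeks: after turning, input read ratios at sites went with RNA ratios (Pearson r 0.78 at 8 weeks over 9733 genes, 0.60 at 28 weeks over 9661 and 0.78 between WT ages over 9606, genes not being independent replicates), and WT site sums were shared between tables at 21900 and 22361 sites, against 26 to 56 for other pairs of columns. An adjusted p under 0.05 was the threshold, and genes without an adjusted p entered no count or median. The interaction of genotype and age was tested on the difference of the 2 deposited ratios. On simulated ratios it called 35 of 100 genes with a difference of 1, 71 of 100 with a difference of 2 and 6 of 14078 unchanged genes. The simulated errors were drawn from the SEs that the test itself used, so few calls among unchanged genes followed from the set-up. Changed genes were picked at random from all genes, and the rates are not those of the cluster, whose SEs were often wider. IP over input was recomputed with 0.5 added to each sum.

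The members and gene lists were chosen with earlier results of these data known. Named were all 8 members and their sites, Apof, up to 4 called genes of each list, called neighbours, and the 3 nearest genes by likeness. Myh4, Acta1, Krt5, Prss1, Cpa1 and Lrat were named after their values were seen. The planned edgeR fits, left-out animals and the protein identity between members were not run, since values per library and protein sequences are not in the tables used. The alternatives tried were centring, other thresholds, filters, p adjustment, offsets and neighbourhood width. The m6A table of ageing in KO livers was not used, and some genes taken by this rule are not reported here. Promoter windows are from RefSeq, GRCm38.p6; 7 of the 8 genes matched. Tools were scipy 1.17.1, pandas 2.3.3, numpy 2.4.6 and matplotlib 3.10.9 under Python 3.11.15.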

Additional observations from a re-analysis of the deposited data

How the results depend on the processing

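No paired analysis was possible because the tables used hold group sums and ratios but no values per library, and the genotype and age groups share no animal number; for the same reason leaving out an animal and an edgeR fit were not run. Of the alternatives that could be run, 49 values of the main comparisons and 161 of 162 of single genes and sites were rated the same. That meant the same direction and, where an adjusted p was available, the same side of the threshold. A count had to stay within 1.5 times. The exception was an Sdr9c7 site at 28 weeks, whose adjusted p of 0.0485 became 0.0908 over sites with at least 50 input reads in each group, which left 4 called sites there. At an adjusted p under 0.01 the WT age comparison had 2 called cluster genes in place of 3, Rdh1 being the one lost, and the cluster's called sites were 5, 4 and 6 in place of 5, 5 and 7 at 8 weeks, at 28 weeks and in the WT age table. Under 0.1 the called sites at 28 weeks were 7. Scaling columns to their totals gave 14, 12 and 14 positive site changes in place of 12, 11 and 15. Site changes recomputed in this way had no adjusted p, so only their direction was compared. At 8 weeks the called sites of Rdh1 and Rdh16f2 went from -0.10 and -0.08 to -0.03 and -0.02. Those of Rdh7, Hsd17b6 and Rdh9 went from 0.05, 0.08 and 0.22 to 0.13, 0.11 and 0.23. Calls in the lists of related genes under 0.1 were 12, 0, 15 and 12 in place of 10, 0, 11 and 9, at 8 weeks, at 28 weeks, and with age in WT and in KO livers. With 3 animals a group and member SEs of up to 0.83, differences of a log2 unit can go undetected; site p-values carry counting error only.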

Other observations

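One Rdh19 site was listed at 28 weeks with 251 IP and 5 input reads in KO and 0 IP and 209 input reads in WT livers. Its deposited log2 change of 14.25 was the highest of all 52315 sites of that table, where the next was 5.28, and the authors' deposited table gives it a p of 4.78e-26 and no adjusted p. It was the single site of that table with 0 reads in one column and at least 200 in another; the 8-week table held 6 such sites, and 10 were in the WT age comparison. The other Rdh19 site, with at least 6356 reads in each column, had a change of 0.12.

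The cluster sites without an adjusted p also included 1 of Rdh16 and 1 of Rdh9 at 8 weeks and 1 of Rdh1 at 28 weeks, all of them thinly read. The Rdh1 site had 76 IP and 51 input reads in KO and 50 IP and 52 input reads in WT livers, a log2 change of 0.69 in the authors' deposited table.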
